A study of Homo sapiens with 13 samples.

Results

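Broad H3K4me3 domains were examined in MDA-MB-231, an established human cell line of triple-negative (basal B) breast cancer that was cultured in serum-containing medium, with no treatment or genetic change labelled. They were chosen by width alone, as the regions of the H3K4me3 ChIP-seq peak list that were at least 5000 bp wide, end minus start: 562 of 24693 regions, leaving 24131 narrower ones. The list was called on 2 merged libraries, and peak lists for H3K27ac, H3K4me1, Pol II and CTCF (2 merged libraries each) and for p300/CBP (1 library) were read at the same places. Widths and counts by width are therefore given as a description, and tests were kept to the other 5 lists and to the position of the TSS (transcription start site) within a region. The lists hold positions in hg19 only, with no height or count, so the depth is unknown, and the confidence intervals cover counting error over regions, not differences between cultures.

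H3K4me3 is written at the first nucleosomes of transcribed genes by the SET1 and MLL methyltransferase complexes, most of all where CpG dinucleotides are dense. Most active promoters carry a short stretch of the mark next to a nucleosome-poor start site, and H3K4me1 lies on the flanks where H3K4me3 fades. In several cell types, unusually long stretches have been described at genes of cell identity and at tumour suppressors. H3K27ac is the acetyl mark of active promoters and enhancers that p300 and CBP deposit, Pol II is the polymerase that transcribes protein-coding genes, and CTCF is a DNA-binding protein that helps to fold chromatin into loops.

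To show what lies at the start sites of such domains, the 300 bases from 250 bp before the canonical TSS into the first 50 bp of the transcript are given for NR2F2, SMURF2 and EPHA2, among the widest domains with 1 TSS, and for the domains lying furthest downstream and furthest upstream of their TSS. They were read from the GRCh37 genome 5′ to 3′ on the strand of the gene, and capitals mark CpG dinucleotides and, where present, TATAAA. The NR2F2 stretch is chr15:96873679-96873978, plus strand, the SMURF2 stretch chr17:62658376-62658675, minus strand, and the EPHA2 stretch chr1:16482515-16482814, minus strand. DYNC1H1 (chr14:102430660-102430959) and TRIM39 (chr6:30294454-30294753) are both on the plus strand. They hold 44, 36, 20, 44 and 30 CpG dinucleotides in that order, and NR2F2 alone among the 5 holds TATAAA. There it lies after the TSS, within the first 50 bp of the transcript.
NR2F2: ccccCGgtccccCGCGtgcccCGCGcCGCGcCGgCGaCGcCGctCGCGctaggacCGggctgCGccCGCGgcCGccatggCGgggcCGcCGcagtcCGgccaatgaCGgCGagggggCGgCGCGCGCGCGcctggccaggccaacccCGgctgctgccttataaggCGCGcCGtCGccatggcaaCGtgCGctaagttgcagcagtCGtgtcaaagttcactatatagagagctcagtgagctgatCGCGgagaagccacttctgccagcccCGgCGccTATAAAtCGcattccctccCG
SMURF2: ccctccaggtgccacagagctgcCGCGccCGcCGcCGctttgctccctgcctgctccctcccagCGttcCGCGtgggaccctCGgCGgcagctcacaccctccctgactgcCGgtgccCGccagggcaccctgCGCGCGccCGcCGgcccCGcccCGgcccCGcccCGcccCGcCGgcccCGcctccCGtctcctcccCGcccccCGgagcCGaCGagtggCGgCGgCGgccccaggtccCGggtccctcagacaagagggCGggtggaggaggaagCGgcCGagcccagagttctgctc
EPHA2: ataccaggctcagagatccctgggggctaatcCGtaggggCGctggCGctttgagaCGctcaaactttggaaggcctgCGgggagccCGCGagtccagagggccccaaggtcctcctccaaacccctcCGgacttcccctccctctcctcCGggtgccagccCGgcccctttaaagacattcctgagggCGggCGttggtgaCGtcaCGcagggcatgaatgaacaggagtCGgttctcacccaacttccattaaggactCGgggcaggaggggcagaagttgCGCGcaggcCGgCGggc
DYNC1H1: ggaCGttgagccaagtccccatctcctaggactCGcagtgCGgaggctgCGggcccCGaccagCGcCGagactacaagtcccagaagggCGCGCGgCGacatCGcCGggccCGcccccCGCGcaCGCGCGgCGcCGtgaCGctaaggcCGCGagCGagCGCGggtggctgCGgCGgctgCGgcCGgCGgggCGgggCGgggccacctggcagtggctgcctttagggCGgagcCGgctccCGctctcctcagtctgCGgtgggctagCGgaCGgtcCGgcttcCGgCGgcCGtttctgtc
TRIM39: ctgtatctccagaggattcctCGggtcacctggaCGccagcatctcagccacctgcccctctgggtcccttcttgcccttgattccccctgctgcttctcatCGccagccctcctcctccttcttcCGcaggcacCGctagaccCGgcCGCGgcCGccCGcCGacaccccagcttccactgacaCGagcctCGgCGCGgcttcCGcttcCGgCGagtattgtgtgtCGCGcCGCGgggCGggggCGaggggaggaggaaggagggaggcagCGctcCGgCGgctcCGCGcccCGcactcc

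The broad domains had a median width of 6000 bp (quartiles 5362.5 and 7300 bp) and reached 24150 bp, whereas the narrower regions had a median of 1150 bp. Together they held 3.81 Mb, or 10.0% of all base pairs listed for H3K4me3. The width limit cuts through a continuous distribution. At exactly 5000 bp, 22 regions were taken in, including those of SLC2A1, the main glucose transporter, KLF12 and BUB3. At 4950 bp, 19 regions were left out, among them those of BMP4, the Notch ligand gene JAG1, KIF11 and LMNB1.

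A canonical protein-coding TSS (1 per gene, GENCODE release 44 on hg19) lay inside 427 broad domains, or 76.0% (95% Wilson interval 72.3 to 79.3%), against 35.9% of the narrower regions. Exactly 1 such TSS was held by 346 domains, 2 by 70, 3 by 9 and 4 by 2. In all, 521 of 19894 canonical TSSs (2.62%) lay in a broad domain, 9866 in a narrower region and 9507 in no H3K4me3 region. The count is of the TSS base itself, and the mark could still lie beside it. Of 30 tumour suppressor genes, for example, 22 had the base in a region and 29 had H3K4me3 within 1500 bp. By width class, the share of regions with a TSS was 3.25% below 1000 bp, 78.5% at 2000 to 3000 bp, 83.4% at 4000 to 5000 bp and 69.6% at 10000 bp or more. The number of TSSs per Mb of listed H3K4me3 was 374.5 at 2000 to 3000 bp and 70.2 in the widest class, a fall that follows from the width itself, since most regions with a TSS held 1.

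**Figure D1:**
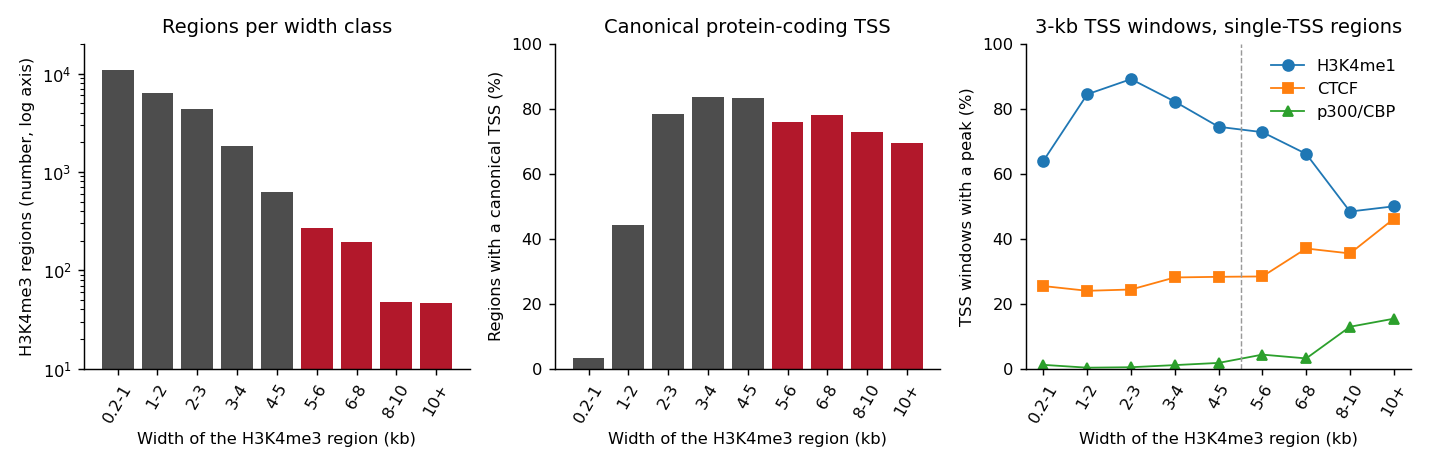
H3K4me3 regions by width class in kb, with classes from 5 kb in red: the number of regions on a log axis (left), the percent with a canonical protein-coding TSS (middle) and, for regions with exactly 1 TSS, the percent of 3-kb TSS windows touched by a H3K4me1, CTCF or p300/CBP peak (right, dashed line at 5 kb). The share with a TSS reaches 83.6% at 3 to 4 kb and is 69.6% in the widest class, and H3K4me1 windows fall from 89.2% at 2 to 3 kb to 50% in the widest class.

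The widest domain with a coding TSS was that of PLEC, which encodes the cytoskeletal linker plectin, with 22850 bp. The domain chr11:65654451-65671901, 17450 bp wide, held the start sites of 3 genes, FIBP, CCDC85B and FOSL1, the last encoding the AP-1 protein Fra-1. Next came NR2F2, a nuclear receptor gene (16500 bp), SMURF2, a ubiquitin ligase gene of TGF-beta signalling (14850 bp), EPHA2, an ephrin receptor gene (14700 bp), BCL2L1, which encodes the anti-apoptotic protein BCL-XL (14200 bp), and DUSP4, a MAPK phosphatase gene (13700 bp). A domain of 13300 bp held the start sites of RAB34, RPL23A, TLCD1 and NEK8. Domains of 11000 to 12500 bp included NT5E (the surface enzyme CD73), SPRY4 (a brake on receptor tyrosine kinase signalling), ANXA2, CDKN1B (the cell cycle inhibitor p27), IRS1 and HMGA2 (a chromatin protein of embryonic and tumour cells).

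Among these domains the other lists differed. H3K27ac covered 94.97% of the PLEC domain and more of the FOSL1, NR2F2, SMURF2, EPHA2, BCL2L1 and DUSP4 domains. The Pol II list covered 80.0% of the NR2F2 domain and 100% of the SMURF2 domain, where 1 Pol II peak of 42400 bp reached far beyond the H3K4me3. At BCL2L1 a single Pol II peak was 67650 bp wide. Neither p300/CBP nor CTCF was listed inside the SMURF2 domain, while BCL2L1 had 3 p300/CBP peaks and 4 CTCF peaks. The ZNFX1 domain, 12150 bp wide, stood out with H3K27ac over only 54.7% of it.

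**Figure D2:**
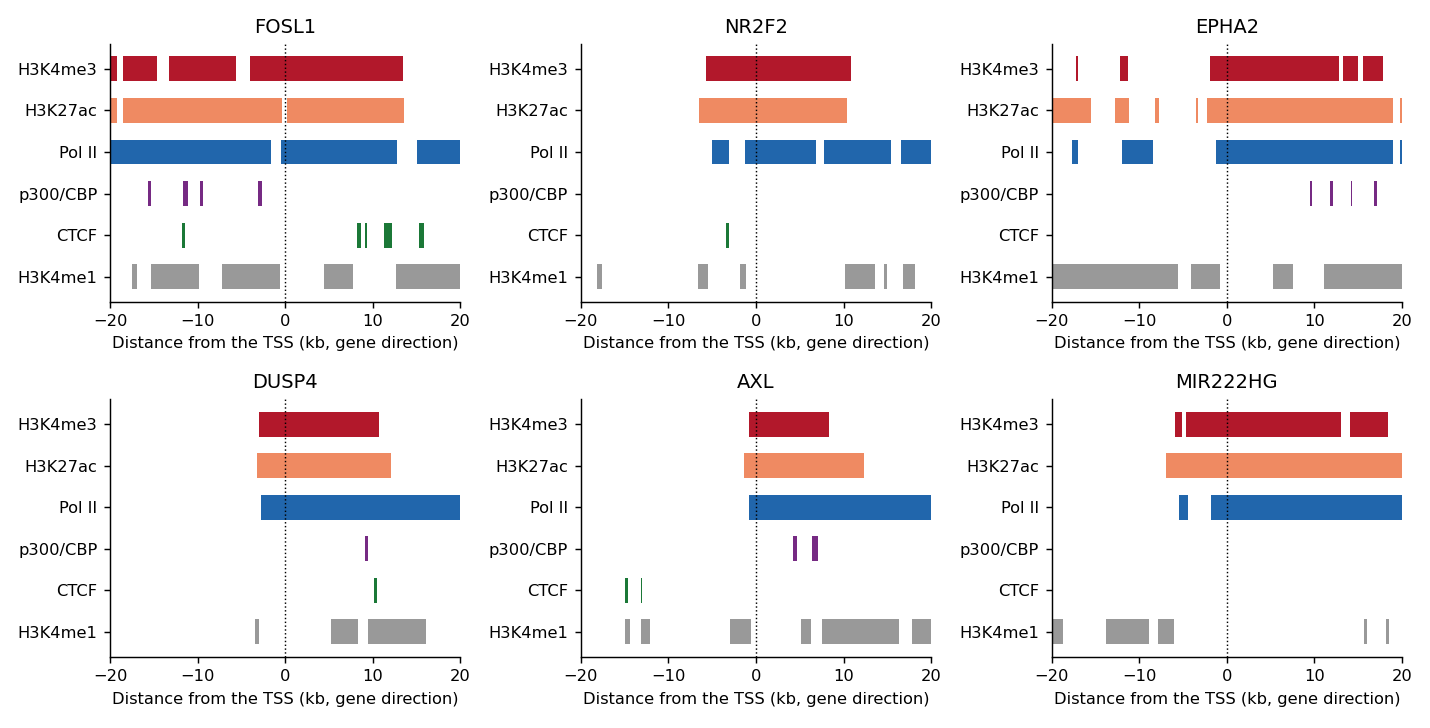
Listed peaks within 20 kb of 6 TSSs in broad domains, drawn as bars by distance from the TSS in kb in the direction of the gene (dotted line, TSS), 1 row per peak list; the loci were chosen after their values were seen. At FOSL1, a further broad H3K4me3 region of 7600 bp lies upstream and holds p300/CBP peaks, whereas at NR2F2 no p300/CBP peak is listed in the window.

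The genes held by broad domains were set against the background of 2.62% of canonical TSSs. That background includes TSSs in no H3K4me3 region. Among the 10387 that lay in one, 5.02% were in a broad domain, the closer measure for lists of mostly marked genes. Of 14 markers of mesenchymal, basal B breast cancer cells, 8 lay in broad domains (57.1%). These were FOSL1, the intermediate filament gene VIM (10050 bp), the receptor tyrosine kinase gene AXL (9200 bp), the urokinase gene PLAU (9200 bp), CAV1 of caveolae (7700 bp), the hyaluronan receptor gene CD44 (6950 bp), ZEB1, a repressor of epithelial genes (5300 bp), and EGFR (5100 bp). Of 14 luminal markers, 1 did, the keratin gene KRT19 (6650 bp). The TSS lay inside a H3K4me3 region of any width for 8 of the 14 luminal genes, among them KRT8, KRT18, FOXA1 and XBP1, and the 3-kb window of 9 held the mark, whereas the windows of ESR1, GATA3 and CDH1 held none. H3K27ac was listed in the TSS window of 14 of the 14 mesenchymal and 9 of the 14 luminal genes. These lists were chosen with earlier results of these data known, and their shares are a description.

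Genes of immediate early responses and of the feedback on MAPK signalling were frequent, with 13 of 30 in broad domains (43.3%). Besides DUSP4 and SPRY4 they included DUSP6, the ERK phosphatase gene (10100 bp), ZFP36L1 (9700 bp) and BTG1 (9450 bp). MYC had 8000 bp, and DUSP1 and MCL1, the latter a survival gene of the BCL2 family, had 7950 bp each. IER2 shared its domain of 7400 bp with STX10, and SPRY1 (7050 bp), IER5, BHLHE40 and SPRED1 completed the group. Of 20 genes of Hippo signalling (the YAP, TAZ and TEAD factors, LATS kinases and targets), 7 lay in broad domains (35.0%): AJUBA and F3 with 10450 bp each, CCN1 with 10050 bp, AXL, TGFB2 with 7900 bp, AMOTL2 with 7500 bp and ANKRD1 with 6400 bp. Of 22 TGF-beta and BMP pathway genes there were 6 (27.3%), namely TGIF1, TGFB2, ID2, ID1, SMAD3 and BMPR2.

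Of 20 AP-1 and small Maf genes, 3 had broad domains (15%): FOSL1, JUN (6400 bp) and JUNB (5900 bp). FOS, with 3700 bp, and FOSB, with 3200 bp, lay in narrower regions. Over 307 genes of large transcription factor families, 23 lay in broad domains (7.49%), among them NR2F2, the glucocorticoid receptor gene NR3C1 (9000 bp), the homeobox gene IRX5 (8950 bp), FOXO3 (8400 bp), NR2F1 (7950 bp) and SOX4 (5500 bp). For 504 numbered zinc finger genes the count was 5 (0.992%), below the background, although 394 had narrower H3K4me3 at the TSS. Of 389 olfactory receptor genes, silent outside the nose, 388 had no H3K4me3 at the TSS and 1 had a narrower region.

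Of 30 tumour suppressors 4 lay in broad domains (13.3%), including CDKN1B, FOXO3 and KMT2D (5350 bp). Of 21 genes of the H3K4 methylation machinery there were 2 (9.52%), KMT2D and SETD1B (8200 bp), and of 20 genes of acetylation and elongation there were 2, BRD2 (10600 bp) and HEXIM1 (5800 bp). Among housekeeping groups, cytosolic ribosomal protein genes counted 11 of 86 (12.8%), with 31 more in regions of 4000 to 4950 bp. Of the 11, RPL3, RPS9 and RPL39 had the only canonical coding TSS of their domain. The rest shared theirs with other coding genes, such as RPL4 with ZWILCH, so their widths are not those of 1 promoter. NADH dehydrogenase subunits counted 1 of 36 (2.78%), NDUFB10 in the domain of RPS2. Proteasome subunits counted 1 of 39 (2.56%), PSMB3 in a domain shared with PCGF2. Of these subunit genes 36 and 37 lay in a H3K4me3 region, and among all 10387 canonical TSSs that did, 5.02% were in a broad domain. Of 64 replication-dependent histone genes 6 had broad domains (9.38%), all in pairs that shared a domain (H2AC17 with H2BC17, H2AC6 with H2BC4, and H1-4 with H2BC5).

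The 135 domains without a canonical coding TSS were of several kinds. An alternative coding TSS lay in 38, including those of ACTN4 (12050 bp), RND3 (10800 bp), RUNX1 (8700 bp), KLF6 (7050 bp), MECOM, SPRY2 and ETS1. Leaving aside the positions near undetermined bases and on Y described below, a TSS of another gene type lay in 33. The widest was chrX:45616601-45634301, 17700 bp, at MIR222HG, the host transcript of miR-221 and miR-222. It was followed by chr14:62207851-62221801 (13950 bp) at HIF1A-AS3 inside HIF1A, and by the domains of the long noncoding RNAs MALAT1 (9950 bp) and NEAT1 (9800 bp), which lay 68150 bp apart. MANCR (8600 bp), MIR23AHG (8100 bp) and DLEU1 (7000 bp) were further examples. In 17 of the 135 domains the nearest canonical TSS was at most 500 bp outside, as at KLF6 and SLC1A5, where it was 1 bp beyond the listed edge.

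A further 31 domains held no annotated TSS. Of these, 20 touched a protein-coding gene, 10 lay within 1500 bp of a canonical TSS, and the median distance to one was 6.83 kb. All 31 were touched by H3K27ac and Pol II, and 11 by p300/CBP. The widest, chr7:130579551-130597951, was 18400 bp wide and 160584 bp from the nearest canonical TSS, that of KLF14. It lay wholly inside 1 H3K27ac peak of 28000 bp and 1 Pol II peak of 55250 bp. Another broad domain of 5450 bp followed 700 bp further on. Likewise chr11:65673501-65681101 lay 1600 bp from the FOSL1 domain. Over all 562 domains, 68 (12.1%) lay within 50 kb of another broad domain.

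The remaining 33 lay within 5 Mb of the longest run of undetermined bases of their chromosome or were assigned to Y, and held no annotated coding TSS. They were set apart by position before TSSs of other gene types were looked for. They differed from all other kinds in what covered them. H3K27ac covered a median of 41.5% of their length, against 97.0% in domains with a canonical TSS, and p300/CBP a median of 46.7%, against 0%. The widest region of the list, chr10:42373301-42397451 with 24150 bp, was of this kind and held 43 separate p300/CBP peaks. The 5 broad domains without H3K27ac were all among them, as were 3 of the 4 without Pol II, the fourth being the LINC01556 domain. In all, 60 broad domains met the position rule, 24 of them with a canonical TSS. How repeated sequence bears on these regions was not tested.

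Single-TSS domains reached further into the gene than away from it. The median broad domain extended 1646.5 bp upstream and 4430.5 bp downstream of its TSS, and in narrower single-TSS regions these arms measured 754 and 1367 bp. The downstream arm was the longer in 301 of 346 broad domains (87.0%, 95% Wilson interval 83.04 to 90.1%), far from an even split (two-sided exact binomial test, p = 1.2e-47). It was also the longer in 82.97% of the 7558 narrower regions. The difference of 4.02 percentage points between the 2 groups did not pass the threshold (odds ratio 1.37, 95% interval 0.995 to 1.93, two-sided Fisher's exact test, p = 0.0558 with and without Benjamini-Hochberg adjustment over 6 tests). Among regions holding no TSS of any other gene it did: 147 of 156 (94.2%) against 84.8% (adjusted p = 0.00082, two-sided Fisher's exact test). The share of the width lying downstream had a median of 73.3% in broad and 64.4% in narrower regions. No broad domain had a downstream arm under 1000 bp, whereas 65 had such an upstream arm.

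**Figure D3:**
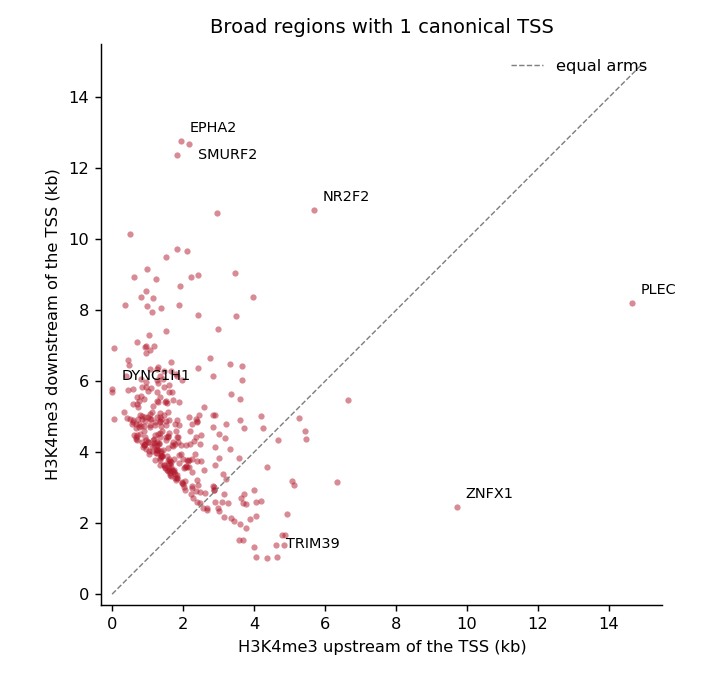
Each point is 1 of the 346 broad domains with exactly 1 canonical TSS, by the length of H3K4me3 upstream (horizontal, kb) and downstream (vertical, kb) of the TSS; the dashed line marks equal arms. Most points (301) lie above the line, with EPHA2 and SMURF2 at over 12 kb downstream and PLEC and ZNFX1 among the few far to the right.

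At one extreme, the DYNC1H1 domain (dynein heavy chain) began 9 bp before the TSS and ran 5790 bp into the gene, and those of MID1IP1, TNFRSF1A, BUB3 and CHD2 were similarly placed. At the other, TRIM39 had 4653 bp upstream and 1046 bp downstream, followed by ZBTB37, ZNFX1, PCDH7 and MTFP1. Each of these 5 upstream domains also held the start site of a noncoding gene, including HCG17 and HCG18 at TRIM39, GAS5 at ZBTB37 and ZFAS1 at ZNFX1, as did 3 of the 5 downstream ones (DYNC1H1, MID1IP1 and CHD2). A TSS of another gene was present in 190 of the 346 broad domains (54.9%) and in 29.5% of narrower regions, which are shorter by the width rule. With such a TSS the median upstream arm of broad domains was 1878 bp, and without it 1415.5 bp. Of the 70 domains with 2 coding start sites, 50 held a divergent pair, such as HNRNPA2B1 and CBX3 or SKA2 and PRR11, 16 pairs ran in the same direction and 4 converged. In narrower regions 727 of 1030 pairs were divergent.

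The downstream end of the domain lay in the first intron of the canonical transcript in 50.6% of broad domains and beyond it in 37.3%. In 39 (11.3%) the mark ran past the end of the whole transcript, and in 1.07% of narrower regions, whose arms are shorter by the width rule. These 39 were compact genes, and the examples named here were chosen after the values were seen: NR2F2 with a transcript of 9559 bp, CDKN1B with 5002 bp, JUN with 3257 bp, CCN1 with 3190 bp and the metallothionein gene MT2A with 914 bp. The domains of these named genes were 6400 to 16500 bp wide.

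The fixed 3-kb window centred on the TSS gave broad and narrower regions the same length to search, but not the same place relative to their edges. The median arms of narrower regions, 754 and 1367 bp, end inside the window. Those of broad domains, 1646.5 and 4430.5 bp, end outside it. How far this sets the shares was not tested. H3K27ac was listed in 346 of 346 windows of broad domains against 96.9% of narrower ones (two-sided Fisher's exact test, adjusted p = 7.9e-05). Pol II was listed in 346 of 346 against 92.2% (two-sided Fisher's exact test, adjusted p = 7.6e-12). Since most narrower regions also carried both, the differences were 3.07 and 7.79 percentage points. Against regions of 4000 to 4950 bp, of which 100% had H3K27ac and 99.0% Pol II, neither difference was detectable, nor was that of H3K27ac against regions from 2000 bp (99.8%). Where the centre of the peak had to lie in the window, both turned around, H3K27ac to 60.4% against 94.7% and Pol II to 65.03% against 86.2%. The adjustment here and below is that of Benjamini and Hochberg over 6 tests.

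p300/CBP was rare but was more often listed at broad domains, in 19 of 346 windows (5.49%, 3.54 to 8.42%) against 45 of 7558 (0.595%, 0.445 to 0.796%; odds ratio 9.69, 95% interval 5.29 to 17.1, two-sided Fisher's exact test, adjusted p = 2.7e-11). Against regions of 4000 to 4950 bp, with 7 of 396 (1.77%), the difference was smaller (odds ratio 3.22, 95% interval 1.28 to 9.19, two-sided Fisher's exact test, adjusted p = 0.049). The 19 genes included PLEC, the laminin gene LAMB3, DUSP6, VIM, MT2A, NRP1, DUSP1, ANKRD1, BHLHE40 and NFE2L2, the gene of the antioxidant regulator NRF2. In none of the 346 did a p300/CBP peak cover the TSS base itself, which allows a share of up to 1.10% (95% Wilson interval). CTCF was listed in 116 windows (33.5%, 28.8 to 38.7%) against 25.1% (odds ratio 1.51, 1.19 to 1.90, two-sided Fisher's exact test, adjusted p = 0.00076). The CTCF difference did not hold at the TSS itself: within 500 bp the shares were 16.5 and 17.6%, and the TSS base was covered in 2.31% of broad and 6.52% of narrower regions. It was also lost among regions without another gene's TSS (30.1 against 25.3%, adjusted p = 0.19, two-sided Fisher's exact test) and against regions of 4000 to 4950 bp (28.3%).

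**Figure D4:**
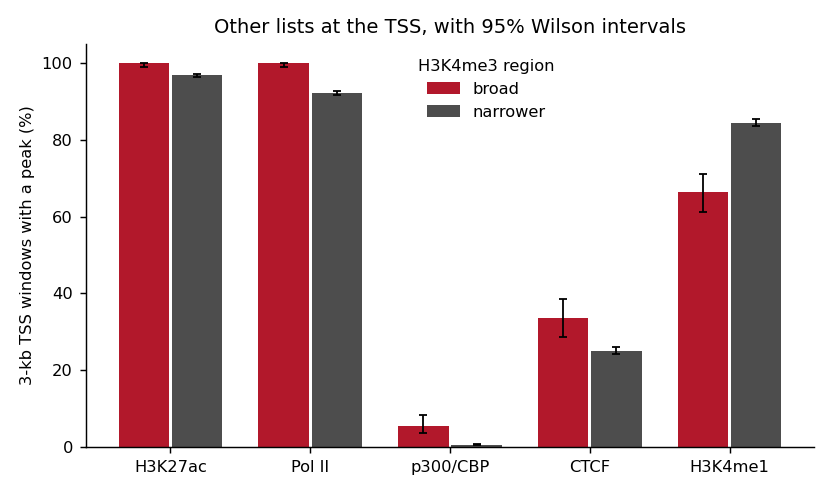
Percent of 3-kb windows centred on the TSS that at least 1 peak of each list touches, in 346 broad (red) and 7558 narrower (grey) single-TSS H3K4me3 regions, with 95% Wilson intervals as error bars. H3K4me1 is the list that is lower in broad domains, at 66.5% against 84.5%.

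H3K4me1 was listed less often around the start sites of broad domains and more often on their flanks. It was present in 230 of 346 windows (66.5%, 61.3 to 71.2%) against 84.5% of narrower ones (83.7 to 85.3%; odds ratio 0.363, 0.286 to 0.462, two-sided Fisher's exact test, adjusted p = 3.4e-15). The 3-kb window ran past the median edges of narrower regions but not of broad ones, so this difference is not free of the width rule. Against regions of 4000 to 4950 bp, with 74.5%, the difference missed the threshold (adjusted p = 0.057, two-sided Fisher's exact test). In windows of 5000 bp on each side the order was the opposite, 98.6% against 92.2%. A H3K4me1 peak covered the TSS base in 2 of 346 broad domains (0.578%) and in 9.31% of narrower regions. In narrower regions of 2000 bp or more the share was 2.35%. Along the gene, coverage by H3K4me1 was highest 5300 bp downstream of broad TSSs (73.1%) and 1700 bp downstream of narrower ones (56.9%). It covered the downstream end of 88.7% and the upstream end of 79.8% of broad domains. From the downstream end it went on for a median of 3300 bp, and from the upstream end for 1250 bp. Of the 5 widest domains without any H3K4me1, 3 were at coding genes, DDX3X, ARID2 and ARRDC3.

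**Figure D5:**
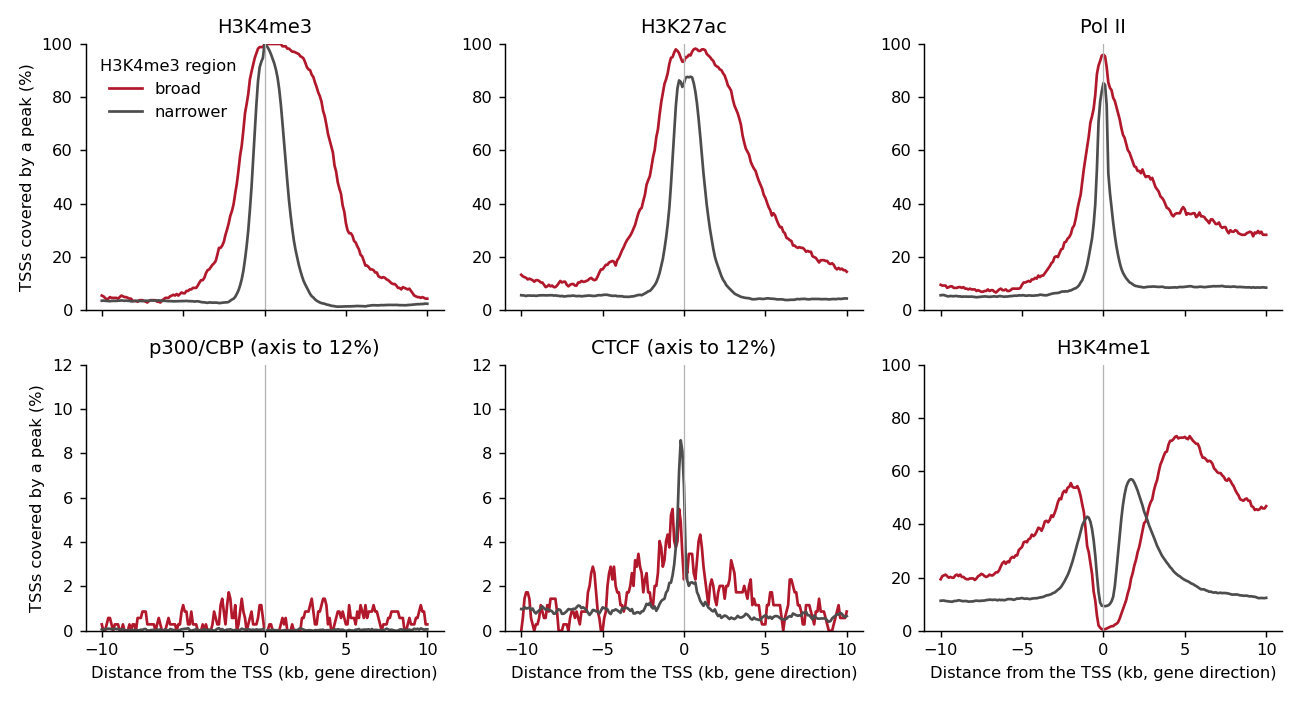
Percent of TSSs covered by a peak of each list at each distance from the TSS (kb, direction of the gene), for 346 broad (red) and 7558 narrower (grey) single-TSS regions; p300/CBP and CTCF are drawn on an axis to 12%. At 3000 bp downstream, H3K27ac covers 79.2% of broad and 6.85% of narrower TSSs, and Pol II covers 49.7 and 8.88%. That distance lies within the median downstream arm of broad domains (4430.5 bp) and past that of narrower regions (1367 bp), so the contrast is not free of the width rule. H3K4me1 has its dip at the TSS in both groups.

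The H3K27ac peak over the TSS was itself wide in broad domains, with a median of 6350 bp against 2150 bp, and 77.7% of broad TSSs lay in a H3K27ac peak of at least 5000 bp against 3.11% of narrower ones. Pol II peaks over the TSS measured 3975 bp (quartiles 2287.5 and 9175 bp) against 1050 bp. Pol II was the more variable of the pair over the domains, covering a median of 66.3% (quartiles 40.0 and 93.1%) of each of the 562, where H3K27ac covered 97.4% (87.7 and 100%). One H3K27ac peak enclosed the whole domain in 237 of 562 (42.2%), against 35.8% of all narrower regions, with or without a TSS. A single Pol II peak did so in 76 (13.5%), against 6.63%. Among regions with a canonical TSS these shares were 40.7 against 21.8% for H3K27ac and 11.2 against 3.56% for Pol II. Where Pol II covered the downstream end, in 37.0% of single-TSS domains, its peak ran on for a median of 4050 bp, whereas H3K27ac, at 60.1%, ran on for 600 bp.

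Over whole regions, which differ in length, p300/CBP touched 122 of 562 broad domains (21.7%) and 4.86% of narrower regions. CTCF touched 261 broad domains (46.4%) and 19.7% of narrower regions. Outside the positions near undetermined sequence and Y, p300/CBP touched 90 of 502 broad domains (17.9%) and 3.24% of narrower regions. There the density of p300/CBP peak centres was 38.8 per Mb in broad and 21.5 per Mb in narrower regions. That of CTCF was 96.7 and 121 per Mb. In domains with a canonical TSS these densities were 29.4 per Mb for p300/CBP, against 2.87 in narrower regions with a TSS, and 103 per Mb for CTCF, against 108. At AXL, for example, 3 p300/CBP peaks lay 4273 to 7123 bp downstream of the TSS, within the 9200-bp domain.

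The start sites of broad domains were CpG-dense, as were those of narrower regions. The 1000 bp around the TSS held a median of 87 CpG dinucleotides against 76. CpG-rich sequence, counted in 200-bp windows, filled a median of 1600 bp of a broad and 800 bp of a narrower region, but only 26.5% of the broad domain's width against 40.0%, so that most of a broad domain was not CpG-rich. GC content over the region was 49.8% and 55.1%. The first exon had a median length of 287 bp against 177 bp.

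In the 300-base promoters, TATAAA on the strand of the gene was present in 31 of 346 broad domains (8.96%, 6.38 to 12.4%) against 2.96% of narrower regions (2.60 to 3.37%) and 7.02% of all 19894 canonical promoters. Counting both strands the shares were 11.8, 4.47 and 9.62%. Carriers included NR2F2, ANXA2, CCN1, MT2A, ADM, MYC, DUSP1, EDN1, ID1, JUNB and GAPDH. The AP-1 sequence TGAGTCA or its complement TGACTCA was present in 3.47% (1.99 to 5.96%), 2.71% and 3.56%, with overlapping intervals for the first 2 groups (2.37 to 3.10% for narrower regions). TATAAA and the AP-1 sequence cannot overlap, and a match says only that the letters are there.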

How the data were processed

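The peak lists stem from MDA-MB-231 ChIP-seq: 2 libraries each for H3K4me3, H3K4me1, H3K27ac, Pol II and CTCF, 1 for p300/CBP (pooled immunoprecipitations) and 2 inputs (not analysed here). The authors aligned reads to hg19, binned unique reads at 50 bp, merged replicates and thresholded the signal. For H3K4me3 a threshold of 30, a run of 150 bp or more and gaps of at most 500 bp are named in the deposited list. Merging across gaps and the threshold set the widths. The deposited lists hold start and end positions only, and other peak settings (longest gap 50 to 1000 bp) differ between lists, so widths are compared within a list.

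The members and gene lists were chosen with earlier results of these data known. A region held a TSS when the base lay inside it, with the end taken as the first base after the region. One canonical TSS per protein-coding gene came from GENCODE 44 on GRCh37, whose chromosome lengths were checked against the lists. A peak counted with at least 1 bp in the window from 1500 bp before to 1500 bp after the TSS. CpG-rich windows of 200 bp had at least 50% GC and an observed to expected CpG ratio of 0.6. Shares have 95% Wilson intervals. Named genes were those of the 20 widest domains, list genes, regions at the width limit, and the 5 most extreme of each class, and some of these are not reported here. Alternatives changed the width limit, joining, window, overlap, peak width, TSS set and comparison group. Python 3.11.15, NumPy 2.4.6, SciPy 1.17.1 and matplotlib 3.10.9 were used, and interval functions were tested on simulated data.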

Additional observations from a re-analysis of the deposited data

How the results depend on the processing

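Of 62 alternatives for the 6 tested results, 49 kept their direction and side of the threshold. A further 7 concerned the number of domains and their TSS share, and they are given last. Differences are broad minus narrower, in percentage points. With the centre of the peak required in the window, H3K27ac turned to -34.3 and Pol II to -21.1, where wide peaks have their centre outside. CTCF turned to -1.15 within 500 bp, and H3K4me1 to 6.401 within 5000 bp. H3K27ac was lost against regions from 2000 bp (0.176). CTCF was lost without other genes' TSSs (4.83) and with peaks at least as wide as their list's median (2.56). Downstream extension passed with broad as 4000 bp or more (2.98) and without other genes' TSSs (9.46). The cause was not tested. Against narrower regions from 4000 bp, an alternative chosen after seeing the data, H3K27ac (0), Pol II (1.01), CTCF (5.24) and H3K4me1 (-8.02, adjusted p = 0.057, two-sided Fisher's exact test) no longer passed, with fewer regions compared. The p300/CBP difference passed in every alternative run, but only just against regions from 4000 bp (3.72, adjusted p = 0.049, two-sided Fisher's exact test). Joining regions less than 1000 bp apart raised the number of broad domains from 562 to 742. Leaving out regions near undetermined sequence or on Y, also chosen after seeing the data, lowered it to 502. The share of domains with a TSS, 76.0%, was 75.9% at 6000 bp or more and 77.5% with joining. It moved to 79.9% at 4000 bp or more and to 82.7% with all basic coding transcripts. Without regions near undetermined sequence or on Y it moved to 80.3%.

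No paired analysis was possible because replicates were merged before peaks were called, so no replicate was left out either. The lists carry no score, and no stricter signal threshold was applied. With p300/CBP from 1 library, its counts have no replicate check. The tests treat regions as independent, which neighbouring domains are not.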
